A study of Homo sapiens with 20 samples.

Results

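The 9 genes described here encode costimulatory receptors and ligands (CD28, CD80, CD86), antigens of other blood lineages that malignant plasma cells can carry (CD4, KIT, CD33) and inhibitory receptors of leukocytes (LAIR1, LILRB1, LILRB4). They are 9 of the 18305 genes in the expression table and were chosen by name, in part because CD4 and CD28 fell strongly in single resistant lines. For that reason the levels of CD4 and CD28 are given as a description, with no test, and tests are given for the other 7 genes only. RNA was sequenced from 20 libraries in 10 groups of 2 replicates each, from the myeloma cell lines AMO1, L363 and RPMI (RPMI-8226) and the B-lymphoblastoid cell line ARH77. Each line was measured as its wild type parent (WT) and as a derivative resistant to the proteasome inhibitor bortezomib (BtzR). AMO1 and L363 were also measured as derivatives resistant to carfilzomib (CfzR), an irreversible inhibitor of the same proteasome subunit. All cells shared 1 medium, and the resistant derivatives were kept in 90 nM of their drug, so that selection for resistance and the presence of drug cannot be told apart. Each resistant group is 1 derivative of its line. The paper calls the 2 RNA replicates biological, and no source says whether they came from separate cultures. The p-values therefore measure the spread between these libraries, not between independent derivatives.

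Levels are in FPKM, fragments per kilobase of transcript scaled to the mapped fragments of the library, which corrects for gene length and allows levels of different genes to be compared. The libraries summed to 457317 to 494850 FPKM and held 10455 to 11023 genes at 1 FPKM or more. The table gives no read counts, so the depth behind each value is unknown, and genes without signal are described as listed at 0. The plasma cell markers SDC1, TNFRSF17, CD38, IRF4, XBP1, JCHAIN and MZB1 reached 1 FPKM in every group, and SLAMF7 did so in every group but RPMI WT and RPMI BtzR. The summed level of the 9 plasma cell markers was 1673.79 to 9273.07 FPKM in the myeloma libraries and 304.13 to 351.66 FPKM in ARH77. All 9 B-cell markers reached 1 FPKM in both ARH77 groups, among them MS4A1 and PAX5. The 2 libraries labelled AMO1 CfzR stood with L363 rather than AMO1. Over all listed genes their Pearson correlation was 0.9912 to 0.9945 with the L363 libraries and 0.9242 to 0.9272 with the other AMO1 libraries. Their values are therefore set beside both AMO1 WT and L363 WT.

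CD28 is the costimulatory receptor of T cells, and its ligands CD80 and CD86 are displayed by B cells, dendritic cells and macrophages. Plasma cells and myeloma cells can themselves express CD28 and CD86. CD4 is a coreceptor of helper T cells and is also present on monocytes, CD33 is a sialic acid-binding lectin of myeloid cells, and KIT is the stem cell factor receptor of progenitors and mast cells. LAIR1, LILRB1 and LILRB4 carry inhibitory tyrosine motifs in their cytoplasmic tails, as does CD33, and these motifs can recruit the phosphatases SHP-1 (PTPN6), SHP-2 (PTPN11) and SHIP-1 (INPP5D).

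Of the 9 genes, 4 were low or absent together in RPMI BtzR after being present in RPMI WT, and their promoters are printed for that reason. Sequences are from RefSeq on GRCh38.p14, where 8 of the 9 genes had an entry and CD4 did not. Each runs 5′ to 3′ on the gene's strand from 250 bases before the start of transcription to 50 bases after it. Capitals mark matches on either strand to GAGGAA (a core bound by PU.1 and other ETS factors), TGTGGT (RUNX) or TGACGT (CRE), and a motif of interferon regulatory factors (IRF), GAAA followed 2 bases later by GAAA, was searched as well.
CD28, chr2:203706389-203706688, + strand: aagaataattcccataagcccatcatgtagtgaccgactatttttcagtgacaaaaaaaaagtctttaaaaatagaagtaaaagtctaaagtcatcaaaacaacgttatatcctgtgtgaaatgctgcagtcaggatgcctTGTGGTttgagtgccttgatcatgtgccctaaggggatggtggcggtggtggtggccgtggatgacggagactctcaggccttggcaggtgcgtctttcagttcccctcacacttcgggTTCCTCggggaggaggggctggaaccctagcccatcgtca
CD33, chr19:51224830-51225129, + strand: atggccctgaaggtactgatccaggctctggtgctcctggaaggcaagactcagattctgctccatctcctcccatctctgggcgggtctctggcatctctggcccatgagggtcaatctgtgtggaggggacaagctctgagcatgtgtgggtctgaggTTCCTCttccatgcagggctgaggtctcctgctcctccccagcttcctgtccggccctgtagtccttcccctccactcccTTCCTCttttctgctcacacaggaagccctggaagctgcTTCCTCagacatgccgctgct
CD86, chr3:122055112-122055411, + strand: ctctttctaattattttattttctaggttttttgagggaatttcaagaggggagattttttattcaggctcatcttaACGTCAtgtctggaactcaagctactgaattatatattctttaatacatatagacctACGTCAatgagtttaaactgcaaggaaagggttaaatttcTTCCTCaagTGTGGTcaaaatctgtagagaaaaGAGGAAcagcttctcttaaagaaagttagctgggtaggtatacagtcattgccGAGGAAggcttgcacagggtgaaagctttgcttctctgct
LILRB4, chr19:54662735-54663034, + strand: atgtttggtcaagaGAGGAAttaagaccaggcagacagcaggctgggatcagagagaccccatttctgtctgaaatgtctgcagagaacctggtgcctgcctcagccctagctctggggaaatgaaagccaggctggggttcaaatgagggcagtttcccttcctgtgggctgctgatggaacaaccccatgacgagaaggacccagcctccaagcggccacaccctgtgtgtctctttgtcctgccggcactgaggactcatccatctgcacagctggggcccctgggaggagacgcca
CD86 has a second listed start, which is not printed and held TGTGGT but not GAGGAA. The CD33 promoter held 3 matches to GAGGAA, and the printed CD86 promoter held 3 matches to GAGGAA, 2 to TGACGT and 1 to TGTGGT. CD28 held 1 match to GAGGAA and 1 to TGTGGT, and LILRB4 held 1 match to GAGGAA. No IRF match was found in these 4 windows. Among all 35116 promoters of this length, 27.9% held GAGGAA, 13.1% TGTGGT, 7.98% TGACGT and 3.57% the IRF motif. GAGGAA was also present in both listed windows of LAIR1 and in a window of LILRB1, though not in its others. LAIR1 was at 48.17 and 48.43 FPKM in RPMI WT and 58.29 and 47.78 in RPMI BtzR. LILRB1 was under 1 FPKM in both groups. Any part of these motifs in the RNA levels was not tested. No marked matches overlap one another. The windows of CD28, CD33, CD86 and LILRB4 held 9, 3, 3 and 4 CpG dinucleotides, against a median of 14 over all promoters. The KIT promoter, by contrast, held 38 CpG dinucleotides and none of the motifs, and the CD80 promoter held 7 and also none.

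The comparison of each resistant group with its parent asks how these genes differ once cells grow in a proteasome inhibitor. LILRB4 was lower in the bortezomib-resistant derivative of all 3 myeloma lines. CD33 and CD86 were lower in RPMI BtzR, LILRB1 was lower in AMO1 BtzR, and by level alone CD28 was near 0 in RPMI BtzR and CD4 in AMO1 BtzR. A call here means an adjusted p under 0.05 in limma and a difference of at least 1 log2 unit. Of the 7 genes open to testing 6 passed the filter of 1 FPKM in a group mean, and their counts were read against all 13089 genes tested. In RPMI BtzR 3 were called lower and none higher, against 7.92% and 5.91% of all genes. In AMO1 BtzR 2 were called lower and none higher, against 4.57% and 4.61%, and in L363 BtzR 1 was called lower and none higher, against 1.05% and 1.02%. With 6 genes, a single call already exceeds each of these shares, and CD80, CD33 and LILRB1 passed the filter through few groups, so these counts are no result about the genes as a set. In L363 CfzR none was called by limma, 1 had an unadjusted p under 0.05, and 1.93% of all genes were called. In ARH77 BtzR none was called, 4 had an unadjusted p under 0.05, and 1.60% of all genes were called. For the libraries labelled AMO1 CfzR, 1 was called higher and 2 lower against AMO1 WT, where 7.88% of all genes were called higher and 9.21% lower. Against L363 WT none was called, 1 had an unadjusted p under 0.05, and 1.66% of all genes were called. Between L363 CfzR and L363 BtzR none was called, 2 had an unadjusted p under 0.05, and 1.47% of all genes were called. The bortezomib differences varied between the 4 lines for 5 of the 6 tested genes, all but CD80, as they did for 71.1% of all genes. CD33, CD86 and LILRB1 were already near 0 in some parents, where a fall could not show.

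**Figure D1:**
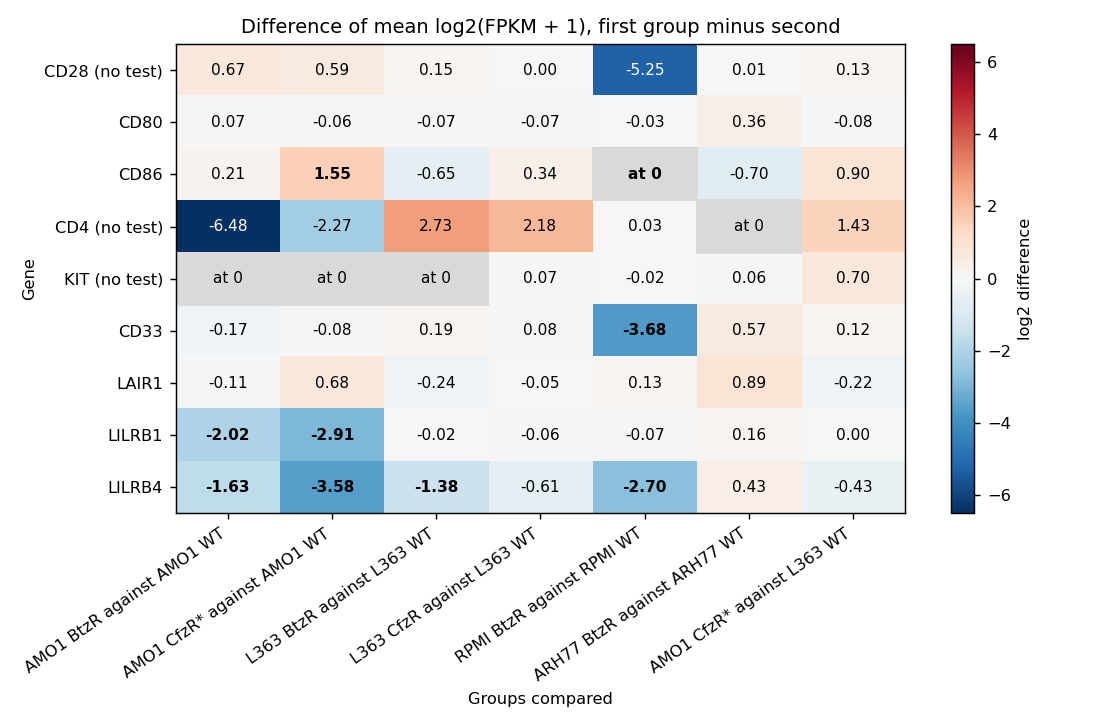
Differences of mean log2(FPKM + 1) for the 9 genes in 7 comparisons, first group minus second. Bold marks a call (adjusted p under 0.05 and at least 1 log2 unit), grey cells marked "at 0" have a group listed at 0 in both libraries, * in the labels marks the libraries labelled AMO1 CfzR, and CD28, CD4 and KIT carry no test. LILRB4 is called lower in AMO1 BtzR, L363 BtzR and RPMI BtzR.

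CD28 was expressed in every myeloma group but RPMI BtzR. Its levels were 28.35 and 27.21 FPKM in AMO1 WT, 39.15 and 37.88 in L363 WT and 42.72 and 44.20 in RPMI WT. In RPMI BtzR its levels were 0.14 and 0.19 FPKM. The libraries of the B-lymphoblastoid line were also near 0, with CD28 at 0.29 and 0.33 FPKM in ARH77 WT and 0.34 and 0.30 in ARH77 BtzR. At levels so far under 1 FPKM the order of these groups is no result. The difference between RPMI BtzR and RPMI WT was -5.25 in mean log2(FPKM + 1), the scale of every difference given here. With 0.1 or 0.01 in place of the added 1 it was -7.37 or -7.97, since the size of a difference from near 0 depends on this constant. CD28 was not low in the other resistant myeloma groups. It was at 50.11 and 39.88 FPKM in AMO1 BtzR, above both AMO1 WT libraries, and at 45.10 and 40.91 in L363 BtzR and 40.15 and 36.68 in L363 CfzR. The libraries labelled AMO1 CfzR had 45.49 and 39.19 FPKM, a difference of 0.59 from AMO1 WT and 0.13 from L363 WT.

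CD80 was confined, among these 20 libraries, to ARH77 at levels above 1 FPKM. Its levels there were 27.58 and 18.99 FPKM in ARH77 WT and 32.73 and 26.75 in ARH77 BtzR, and the groups overlapped (difference 0.36, SE 0.13, adjusted p = 0.0876). In the myeloma libraries CD80 ranged from 0 to 0.13 FPKM. The gene passed the filter on low values through ARH77 alone.

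CD86 was expressed in RPMI WT at 10.58 and 9.47 FPKM and was listed at 0 in both RPMI BtzR libraries. CD86 was called lower in RPMI BtzR (adjusted p = 3.29e-09), and no fold is given against a group listed at 0. In ARH77 it was at 27.31 and 16.52 FPKM in WT and 16.90 and 9.48 in BtzR, which overlap. That difference was -0.70 (SE 0.21, adjusted p = 0.0417), short of the 1 log2 unit required for a call. It became -1.05 without ARH77 WT replicate 2 and -1.09 without ARH77 BtzR replicate 1, and was then called. In L363, CD86 was near 1 FPKM or below, with 0.59 in both WT libraries, 0 and 0.02 in BtzR, and 0.96 and 1.07 in CfzR. L363 CfzR stood above L363 BtzR by 1.00 (adjusted p = 0.00903), a difference just under the 1 log2 unit threshold. The libraries labelled AMO1 CfzR had 1.91 and 2.01 FPKM of CD86. This was 1.55 above AMO1 WT, at 0 and 0.02 FPKM (adjusted p = 1.88e-05), and 0.90 above L363 WT (adjusted p = 0.0171).

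**Figure D2:**
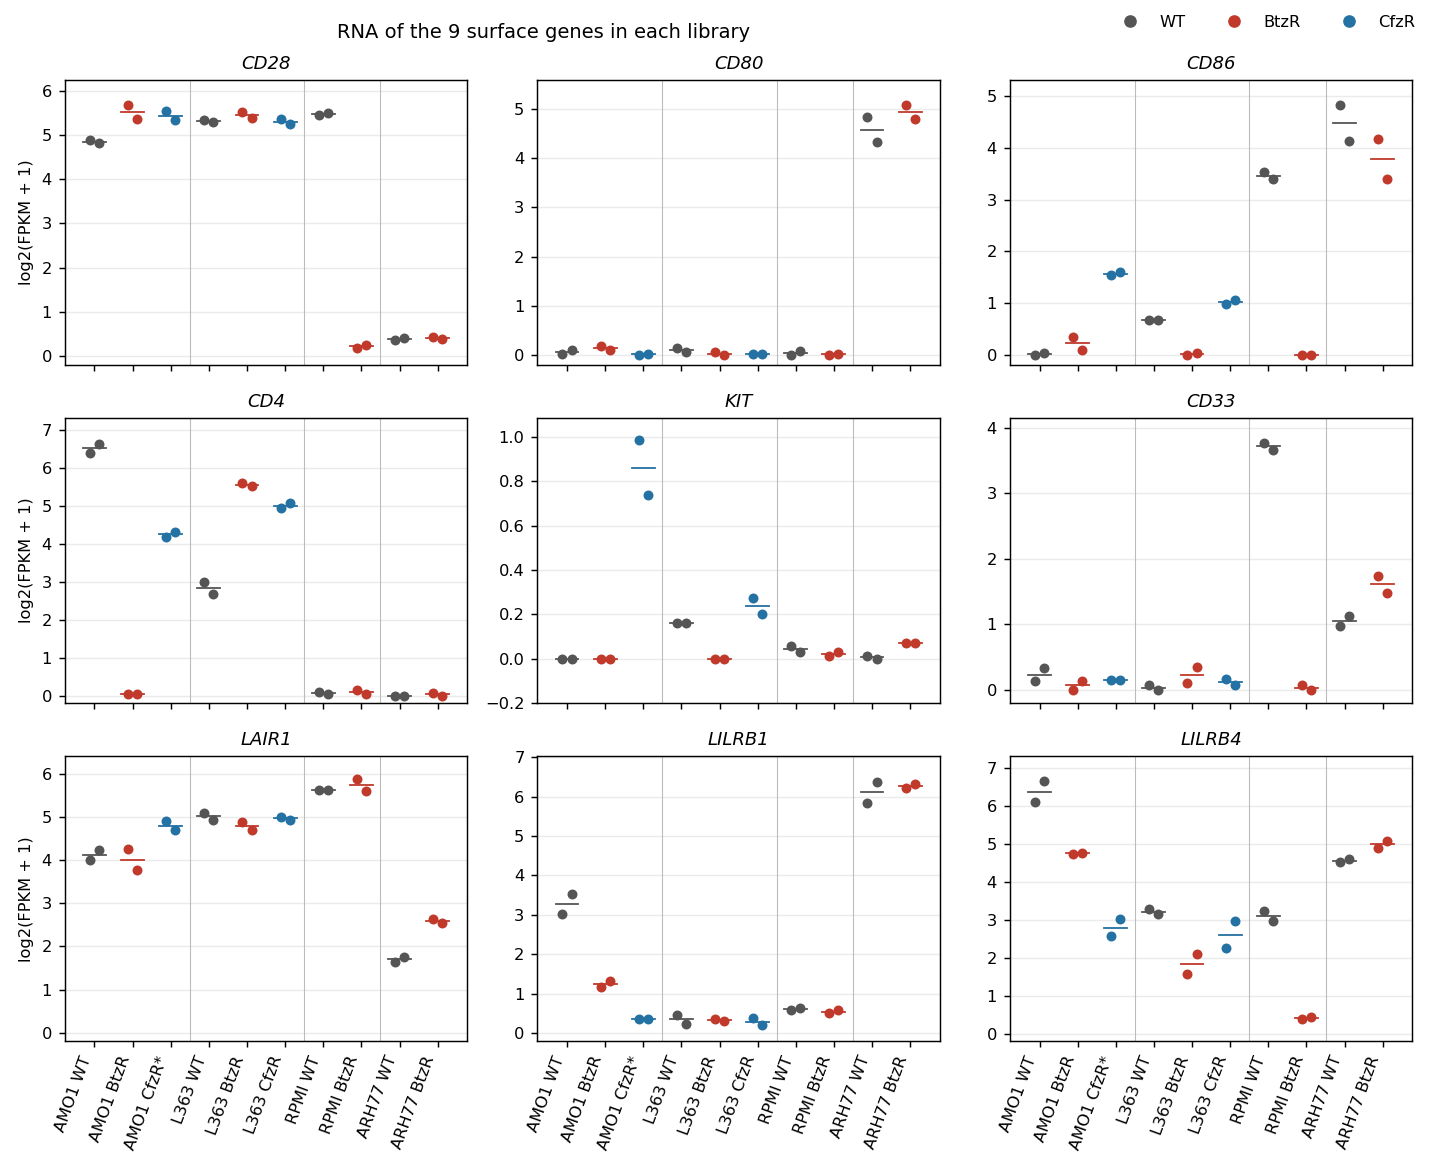
Level of each of the 9 genes in each library, as log2(FPKM + 1), by group. Points are single libraries, the line is the mean of the 2 replicates, grey is WT, red BtzR and blue CfzR, and * marks the libraries labelled AMO1 CfzR. CD28, CD33, CD86 and LILRB4 are lower in RPMI BtzR than in RPMI WT, and CD4 is near 0 in AMO1 BtzR after 83.56 and 98.22 FPKM in AMO1 WT.

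Of 13 other genes of the CD28 and B7 family, all were listed and 10 were tested. In RPMI BtzR 2 were called higher and 1 lower, against 5.91% and 7.92% of all genes. The same counts held in AMO1 BtzR, against 4.61% and 4.57%. CD276 (B7-H3), a ligand-like B7 protein without a settled receptor, was at 1.67 and 2.53 FPKM in RPMI WT and 26.13 and 28.59 in RPMI BtzR (difference 3.21, adjusted p = 1.27e-11). It was also higher in AMO1 BtzR, at 4.87 and 4.31 FPKM against 0.08 and 0.18 (2.31, adjusted p = 1.79e-09). HHLA2, another B7 family ligand, was at 41.05 and 48.14 FPKM in RPMI BtzR and 6.46 and 6.92 in RPMI WT (2.56, adjusted p = 3.8e-07). ICOSLG, the ligand of the costimulatory receptor ICOS, was at 16.83 and 18.56 FPKM in AMO1 BtzR and 8.02 and 5.84 in AMO1 WT (1.25, adjusted p = 2.8e-05). In L363 CfzR it was lower, at 1.36 and 1.16 FPKM against 3.60 and 4.02 (-1.09, adjusted p = 0.000561).

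Among 16 genes that act in CD28 or CD4 signalling, 14 were tested. In RPMI BtzR 1 was called higher and 2 lower, against 5.91% and 7.92% of all genes. IL16, a cytokine reported to bind CD4, was at 18.67 and 15.36 FPKM in RPMI WT and 0.55 and 0.59 in RPMI BtzR (-3.51, adjusted p = 3.75e-10). LCK, the kinase bound by the CD4 tail, was at 0.45 FPKM or below in every myeloma library and at 35.78 to 38.07 FPKM in ARH77. The myeloma groups with high CD4 had little LCK RNA.

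CD4 moved in opposite directions in AMO1 and L363. It was at 83.56 and 98.22 FPKM in AMO1 WT and 0.02 and 0.03 in AMO1 BtzR, a difference of -6.48. With 0.1 or 0.01 added in place of 1, the difference was -9.50 or -11.35. In L363 it was at 6.91 and 5.34 FPKM in WT, 47.08 and 44.84 in BtzR, and 29.53 and 32.77 in CfzR. These are differences of 2.73 for BtzR and 2.18 for CfzR, with all resistant libraries above both L363 WT libraries. The libraries labelled AMO1 CfzR were at 17.24 and 18.91 FPKM, a difference of -2.27 from AMO1 WT and 1.43 from L363 WT, so the direction depends on the parent chosen. CD4 was at 0.10 FPKM or below in every RPMI and ARH77 library.

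Most other T-cell markers were low in both lines. Of 17 such markers, 12 were under 1 FPKM in both AMO1 WT libraries and 15 in both AMO1 BtzR libraries, and CD3D, CD8B and ZAP70 were at 0 in both groups. Their summed level was 34.85 to 41.86 FPKM in AMO1 WT and 43.37 to 46.69 in AMO1 BtzR, of which ZBTB7B, a regulator of the CD4 lineage, made up 21.03 and 22.79 FPKM in WT and 43.15 and 39.42 in BtzR. Without ZBTB7B, left out after its values were seen, the other 16 markers summed to 13.82 to 19.07 FPKM in AMO1 WT and 3.54 to 3.95 in AMO1 BtzR, lower together with CD4. In L363, where CD4 was higher in both resistant groups, the 16 markers summed to 23.39 to 23.85 FPKM in WT, 10.21 to 10.39 in BtzR and 14.27 to 15.78 in CfzR. With ZBTB7B the L363 sums were 45.05 to 46.54, 34.12 to 34.29 and 38.25 to 41.08 FPKM, and the part of these levels in the CD4 values was not tested. Within the list, CD3E, a chain of the T-cell receptor complex, fell from 6.73 and 10.66 FPKM in AMO1 WT to 0.73 and 1.07 in AMO1 BtzR (-2.33, adjusted p = 4.3e-07). CD247 was at 3.26 and 3.25 FPKM in AMO1 WT and 0.67 and 0.58 in AMO1 BtzR (-1.39, adjusted p = 6.66e-09). TRAT1, an adaptor that associates with the T-cell receptor, was at 8.02 and 8.08 FPKM in L363 WT and 0.16 and 0.10 in L363 BtzR, where CD4 was higher (-3.00, adjusted p = 7.81e-12).

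The genes next to CD4 and CD28 were followed in RefSeq order, 5 on each side. In AMO1 BtzR, 8 of the 10 neighbours of CD4 were tested and their differences were all below 0, from -1.32 to -0.54, with 3 called lower. Over all genes 4.57% were called lower in this comparison. COPS7A was at 38.59 and 37.34 FPKM in AMO1 WT and 15.65 and 16.10 in AMO1 BtzR (-1.21, adjusted p = 9.7e-09), and GNB3 had a difference of -1.32 (adjusted p = 9.49e-06). In L363 BtzR, where CD4 was higher and 1.02% of all genes were called higher, the same 8 neighbours had differences of 0.04 to 1.70. PTMS (1.03, adjusted p = 0.000783) and GPR162 (1.70, adjusted p = 1.76e-08) were called higher, PTMS not without L363 WT replicate 1 (0.97) or L363 BtzR replicate 1 (1.00, under the threshold). In AMO1 BtzR the third called neighbour, P3H3 (-1.07), was not called without AMO1 WT replicate 1 (-0.91). In L363 CfzR, where CD4 was also higher, their differences were -0.01 to 0.91. None was called by limma, and 2 had an unadjusted p under 0.05. CD4 itself differed by more than any neighbour in all 3 comparisons. As CD4 was chosen partly on its values, this is a description and no result about its place among these genes. For CD28 in RPMI BtzR, 7 neighbours were tested and the differences had both signs, from -2.91 for NRP2, at 6.81 and 7.38 FPKM in WT and 0.07 and 0.08 in BtzR, to 1.77 for ABI2. The CD28 relatives CTLA4 and ICOS, which lie next to it, were under 1 FPKM in both groups.

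**Figure D3:**
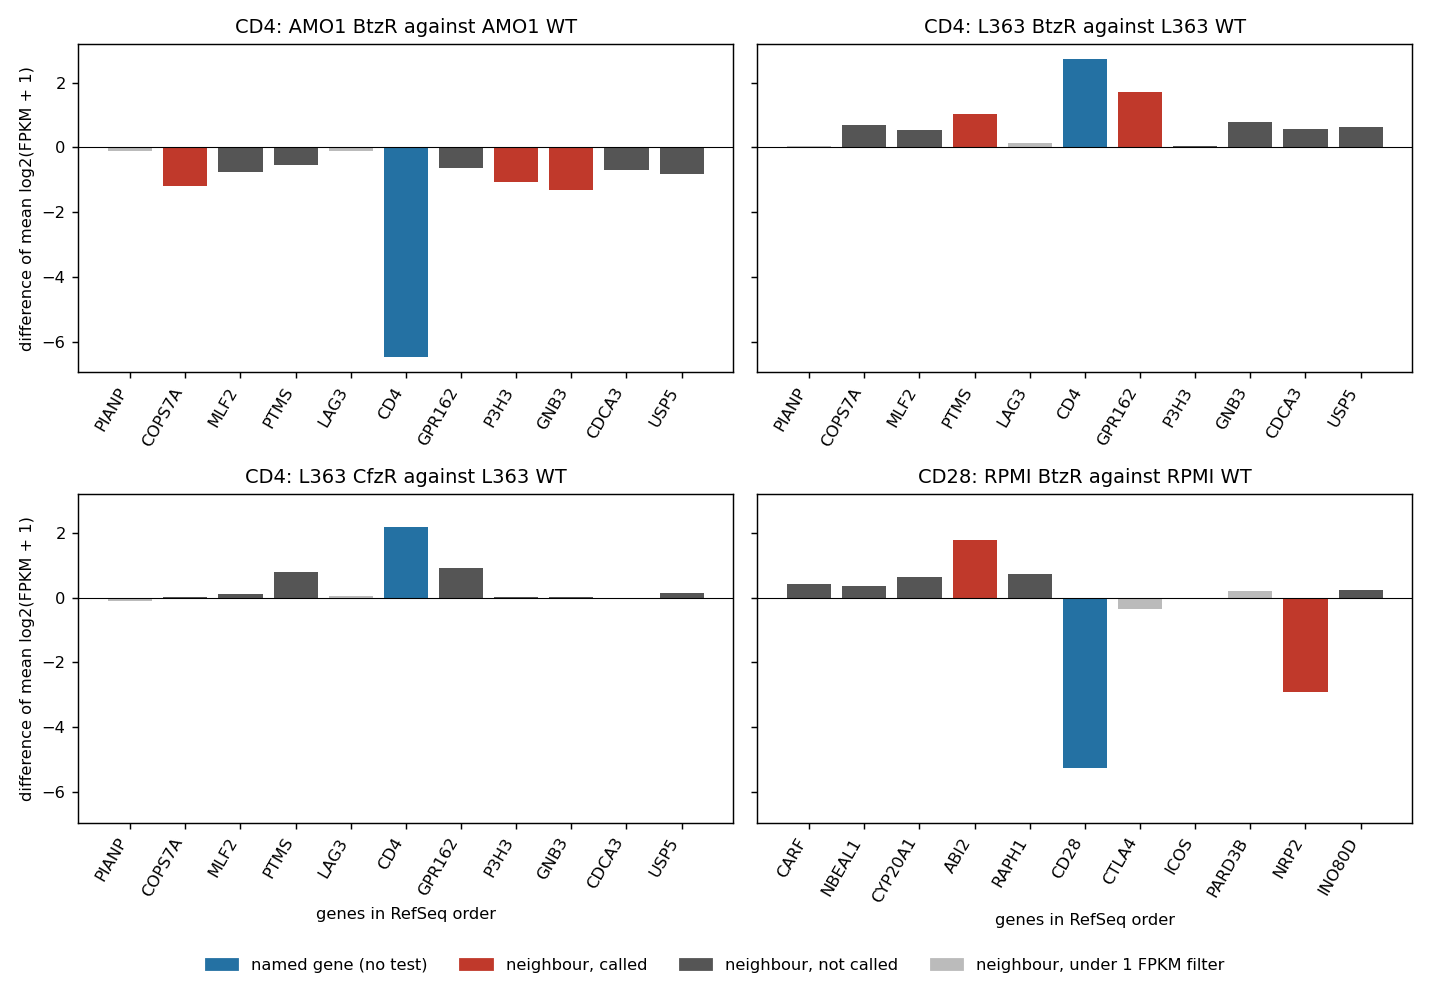
Difference of mean log2(FPKM + 1), resistant minus parental, for CD4 in 3 comparisons and CD28 in 1, with 5 listed genes on each side in RefSeq order. Blue is the named gene, red a called neighbour, dark grey a neighbour tested and not called, and light grey one under the filter on low values. In AMO1 BtzR all 8 tested neighbours of CD4 lie below 0, and in L363 BtzR they lie above it.

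KIT was low throughout. Its highest values, 0.98 and 0.67 FPKM, were those of the libraries labelled AMO1 CfzR, where both AMO1 WT libraries were listed at 0 and both L363 WT libraries had 0.12, a difference of 0.70 from L363 WT. It was listed at 0 in 7 of 20 libraries, stayed under the 1 FPKM filter in every group mean and was not tested. Of 11 stem, progenitor and mast cell markers, 8 were listed and 1 passed the filter, MITF, a regulator of mast cells and pigment cells. MITF was at 0.15 to 2.48 FPKM over all libraries and was called in none of the 6 comparisons of resistant with WT groups. CD34, the defining progenitor marker, was at 0 in every AMO1 and L363 library, those labelled AMO1 CfzR included. Of 11 genes made up of the KIT ligand, related kinases and their regulators, 6 were tested. In AMO1 BtzR 2 were called higher, against 4.61% of all genes. These were GRB10 (1.64, adjusted p = 8.44e-09) and SOCS1 (2.97 and 2.12 FPKM against 0.32 and 0.18, adjusted p = 1.33e-05). CSF1 (4.39 and 4.79 FPKM against 1.15 and 0.81, adjusted p = 2.4e-06) and SH2B3 were called higher in RPMI BtzR, as were 5.91% of all genes. SH2B3 was at 5.52 and 17.24 FPKM in RPMI BtzR and 3.49 and 4.84 in RPMI WT (1.09, adjusted p = 0.00857), and was not called without RPMI BtzR replicate 2 (0.35, adjusted p = 0.126) or without RPMI WT replicate 1 (0.90, adjusted p = 0.0816).

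CD33 was restricted to RPMI WT and ARH77. It was at 12.56 and 11.69 FPKM in RPMI WT and 0.05 and 0 in RPMI BtzR (-3.68, SE 0.11, adjusted p = 5.51e-13). In ARH77 it was at 0.96 and 1.18 FPKM in WT and 2.35 and 1.80 in BtzR (0.57, SE 0.11, adjusted p = 0.00209), higher in both BtzR libraries and short of the fold threshold. In all AMO1 and L363 libraries it was at 0.27 FPKM or below. In ARH77 WT the mean of CD33, 1.07 FPKM, was only just above 1 FPKM. SPI1, which encodes the myeloid and B-cell factor PU.1, reached a group mean of 1 FPKM in the same groups. It was at 20.34 and 22.49 FPKM in RPMI WT and 0.24 and 0.08 in RPMI BtzR (-4.27, adjusted p = 2.26e-14), at 6.48 to 8.64 FPKM in ARH77, and at 0.15 FPKM or below in AMO1 and L363. The 9 B-cell markers summed to 35.59 to 36.60 FPKM in RPMI WT and 1.39 to 1.83 in RPMI BtzR. The 14 listed myeloid markers summed to 41.87 to 44.14 FPKM in RPMI WT and 11.29 to 13.64 in RPMI BtzR. Of these 14, 6 were tested, and 2 were called lower, SPI1 and CD68, and none higher, against 7.92% and 5.91% of all genes. CD68 was at 16.57 and 13.94 FPKM in WT and 3.53 and 3.66 in BtzR (-1.82, adjusted p = 1.39e-07). LYZ was not lower, at 6.36 and 4.60 FPKM in WT and 6.16 and 8.22 in BtzR. The median difference of the 6 was 0.06, against 0.05 over all genes. Of the 14 myeloid markers, LYZ, CD68 and SPI1 reached 1 FPKM in RPMI WT and 11 were under it in both libraries. Among these 11, MPO, CD163, FCGR1A, CEBPE and TYROBP were at 0 in both RPMI WT libraries. The part of these shifts in the results for CD33 and CD86 was not tested.

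Among 13 other sialic acid-binding lectins, 8 were tested. Over all genes 7.92% were called lower in RPMI BtzR, and 1.60% were called in either direction in ARH77 BtzR. In RPMI BtzR 1 was called lower, MAG, at 3.16 and 3.51 FPKM in WT and listed at 0 in both BtzR libraries. In ARH77 BtzR 2 were called higher: SIGLEC5, at 6.09 and 5.32 FPKM against 2.03 and 1.38 (1.32, adjusted p = 2e-07), and MAG, at 4.66 and 4.79 against 1.89 and 1.41 (1.12, adjusted p = 2.18e-07). MAG was not called without ARH77 WT replicate 2 (0.99).

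Of the inhibitory receptors, LILRB4 was the 1 called lower in most resistant myeloma groups. It was at 67.67 and 99.66 FPKM in AMO1 WT and 25.60 and 26.30 in AMO1 BtzR, a 3.22-fold lower mean level (-1.63, SE 0.23, adjusted p = 4.61e-05). In L363 it was at 8.81 and 7.86 FPKM in WT and 1.98 and 3.32 in BtzR, 3.15-fold lower (-1.38, SE 0.23, adjusted p = 0.00105). In RPMI it was at 8.48 and 6.91 FPKM in WT and 0.30 and 0.36 in BtzR, 23.3-fold lower (-2.70, SE 0.23, adjusted p = 1.64e-07). In each case both resistant libraries lay below both WT libraries. L363 CfzR, at 3.77 and 6.79 FPKM, lay below L363 WT without passing the test (-0.61, adjusted p = 0.147). In the libraries labelled AMO1 CfzR LILRB4 was at 4.92 and 7.13 FPKM, a difference of -3.58 from AMO1 WT and -0.43 from L363 WT (adjusted p = 0.421). In ARH77 it was at 22.07 and 23.14 FPKM in WT and 28.94 and 32.66 in BtzR (0.43, adjusted p = 0.267).

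LILRB1, which binds class I HLA molecules, was expressed mainly in ARH77, at 56.00 and 82.16 FPKM in WT and 73.55 and 78.62 in BtzR. Among the myeloma lines it was above 1 FPKM in AMO1 WT, at 7.08 and 10.57, and in AMO1 BtzR, at 1.24 and 1.52, where it was 6.39-fold lower (-2.02, SE 0.17, adjusted p = 2.49e-07). The L363 and RPMI libraries were at 0.15 to 0.56 FPKM. The libraries labelled AMO1 CfzR, at 0.28 and 0.29 FPKM, differed from AMO1 WT by -2.91 and had the same mean as L363 WT.

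LAIR1, a receptor for collagens, was expressed in every group and was called in no comparison of a resistant group with its parent. Its differences were -0.11 in AMO1 BtzR, -0.24 in L363 BtzR, -0.05 in L363 CfzR and 0.13 in RPMI BtzR. The libraries labelled AMO1 CfzR, with a mean of 26.9 FPKM, were each above both AMO1 WT libraries, at 14.95 and 17.89 (0.68, adjusted p = 0.000909), and below both L363 WT libraries, at 33.31 and 29.61 (-0.22, adjusted p = 0.543). It was highest in RPMI, at 48.17 and 48.43 FPKM in WT and 58.29 and 47.78 in BtzR. In ARH77 it was at 2.13 and 2.36 FPKM in WT and 5.23 and 4.79 in BtzR, 2.23-fold higher by mean level (0.89, SE 0.14, adjusted p = 0.000622), below the fold threshold on the log2(FPKM + 1) scale. With 0.1 added in place of 1 the difference was 1.12 and was called.

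Of 20 other genes of the leukocyte receptor complex, in which LAIR1, LILRB1 and LILRB4 lie, 12 were tested. Over all genes 4.57% were called lower in AMO1 BtzR and 7.92% in RPMI BtzR. LILRA2, an activating member, was the 1 gene called lower in AMO1 BtzR, at 0.87 and 0.74 FPKM against 3.41 and 5.53 (-1.57, adjusted p = 6.32e-07). LILRA2 was also the 1 gene called lower in RPMI BtzR, at 0.02 and 0 against 1.91 and 1.34 (-1.37, adjusted p = 1.56e-06). The LILR genes are close in sequence, and reads shared between them could be assigned to either, so their values are less certain than those of the other genes.

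Of 7 tested enzymes and adaptors that bind inhibitory motifs, 1 was called higher and 1 lower in AMO1 BtzR, against 4.61% and 4.57% of all genes. In RPMI BtzR 2 were called lower, against 7.92%. PTPN6 was at 127.24 and 159.46 FPKM in AMO1 WT and 8.80 and 10.52 in AMO1 BtzR (-3.76, adjusted p = 9.51e-10), and at 6.04 and 6.69 in RPMI WT and 0.08 and 0.24 in RPMI BtzR (-2.67, adjusted p = 1.56e-08). INPP5D was at 6.74 and 6.93 FPKM in RPMI WT and 0.01 and 0.05 in RPMI BtzR (-2.93, adjusted p = 6.53e-12). In AMO1 BtzR INPP5D was not lower, at 42.56 and 40.62 FPKM against 27.17 and 28.59. PTPN11 was at 34.07 and 32.40 FPKM in RPMI WT and 40.15 and 44.52 in RPMI BtzR, and INPPL1 (SHIP-2) at 17.67 and 20.07 in WT and 32.27 and 28.78 in BtzR, both above WT by less than the 1 log2 unit required for a call. None was called by limma in L363 BtzR, L363 CfzR or ARH77 BtzR, where 2, 1 and 1 had an unadjusted p under 0.05.

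**Figure D4:**
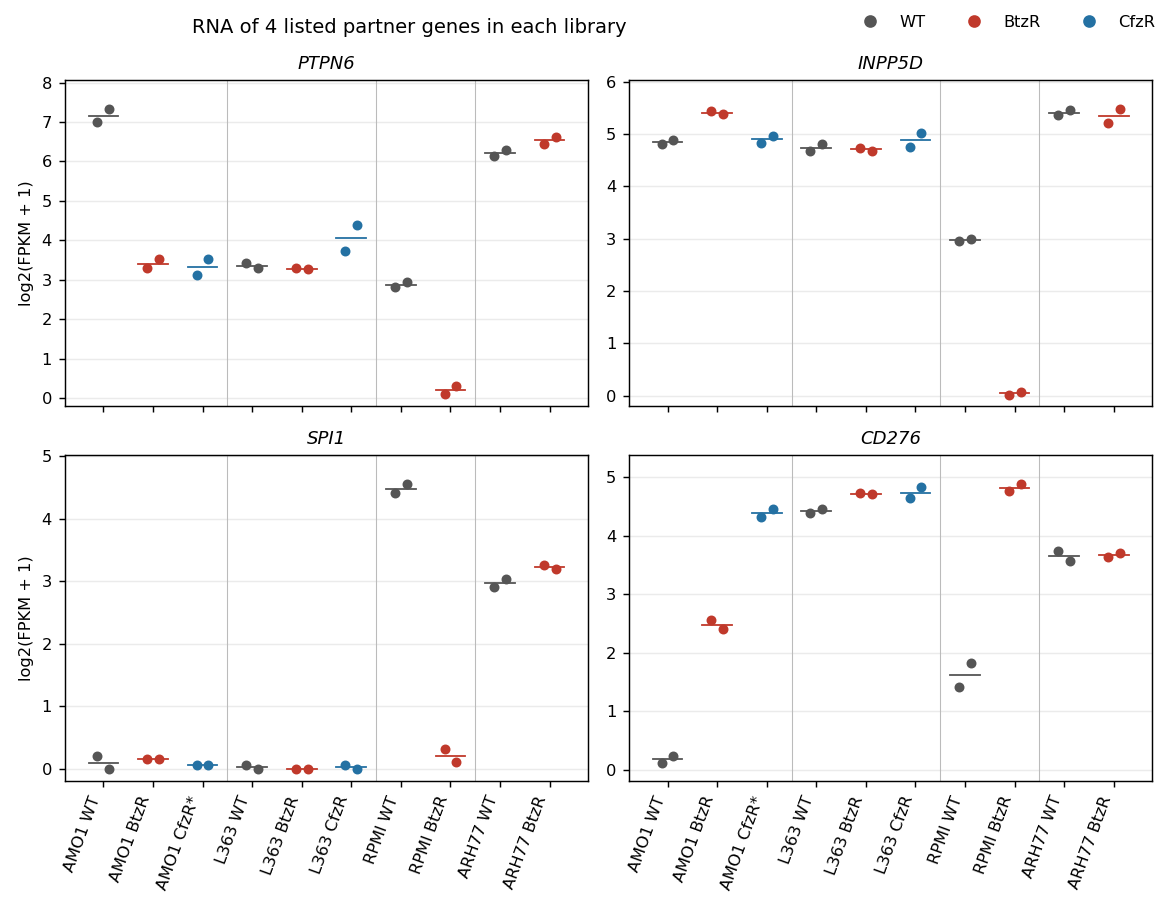
Levels of PTPN6, INPP5D, SPI1 and CD276 in each library as log2(FPKM + 1), by group, with points for single libraries and a line for the mean of 2 replicates. Grey is WT, red BtzR, blue CfzR, and * marks the libraries labelled AMO1 CfzR. PTPN6 is lower in AMO1 BtzR and RPMI BtzR than in their parents, INPP5D and SPI1 are lower in RPMI BtzR, and CD276 is higher in both.

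Of the genes listed as ligands of these receptors, 6 were tested and 2 were called lower in RPMI BtzR, against 7.92% of all genes. FN1, fibronectin, was at 3005.46 and 3820.93 FPKM in RPMI WT and 36.67 and 96.36 in RPMI BtzR (-5.81, adjusted p = 3.12e-09). ALCAM, an adhesion molecule, was at 12.78 and 12.79 FPKM in RPMI WT and 0 and 0.02 in RPMI BtzR (-3.77, adjusted p = 4.06e-14). None was called by limma in AMO1 BtzR, L363 BtzR or L363 CfzR, where 2, 2 and 1 had an unadjusted p under 0.05.

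The parental lines differed in several of these genes. Between AMO1 WT and L363 WT 2 of the 6 tested genes were called (16.6% of all genes), LILRB1 and LILRB4, both higher in AMO1 WT. Between AMO1 WT and RPMI WT 5 were called, against 21.9% of all genes. Between L363 WT and RPMI WT CD33 and CD86 were called, both higher in RPMI WT, against 21.9%. ARH77 WT differed from AMO1 WT in 5 of the 6 tested genes (24.3% of all genes), from L363 WT in 6 (25.2%) and from RPMI WT in 6 (28.4%). Each of these counts includes CD80, which passed the filter through ARH77 alone and so had to differ, and they are given as a description. Ordered by mean FPKM, LAIR1 in WT cells was highest in RPMI (48.3 ± 0.184, SD, n = 2), then L363 (31.5 ± 2.62), AMO1 (16.4 ± 2.08) and ARH77 (2.25 ± 0.163). RPMI and L363 differed by less than 1 log2 unit (0.61, adjusted p = 0.00181), as did L363 and AMO1 (0.90, adjusted p = 8.07e-05). For LILRB4 the order was AMO1 (83.7 ± 22.6), ARH77 (22.6 ± 0.757), L363 (8.34 ± 0.672) and RPMI (7.70 ± 1.11), where L363 and RPMI did not differ beyond their spread (adjusted p = 0.717).

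The genes whose 10 group means followed each member most closely were sought among 3537 genes that spanned at least 2 log2 units. The groups share parental lines, so these correlations describe the pattern and carry no p. CD28 was followed by MYEOV (Pearson r = 0.992) and NMB (0.987), both low in RPMI BtzR and ARH77. MYEOV was at 15.11 and 11.70 FPKM in RPMI WT and 0.10 and 0.29 in RPMI BtzR. For CD4 the nearest gene was GHDC (0.938), at 38.61 and 44.40 FPKM in AMO1 WT and 15.27 and 16.02 in AMO1 BtzR. CD33 was followed by MAL (0.989), at 109.94 and 130.14 FPKM in RPMI WT and 0.07 and 0 in RPMI BtzR, and CD86 by LY86 (0.953), at 18.92 and 13.99 FPKM in RPMI WT and listed at 0 in RPMI BtzR. LILRB1 was followed by IL2RB (0.994), a chain of the interleukin-2 receptor, at 7.42 and 11.82 FPKM in AMO1 WT and 0.84 and 0.80 in AMO1 BtzR. LILRB4 was followed by HLA-DRB4 (0.955), LAIR1 by ZNF681 (0.975), and CD80 by the B-cell antigen MS4A1 (1.00), as 252 genes correlated above 0.95 with the ARH77 restriction of CD80.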

How the data were processed

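RNA from 10 groups of 2 libraries was sequenced on the BGISEQ-500 platform. The authors deposited 1 table of FPKM values for 18305 genes. The submitters' processing notes name HISAT2 2.0.4, Bowtie2 2.2.5 and RSEM 1.2.12, and the genome build is not given in the sources used here. The FPKM values carry no read counts, so depth is unknown and no count model was used. Values were taken as log2(FPKM + 1), and genes with a group mean of 1 FPKM or more in at least 1 group were kept (13089 of 18305). A mean was fitted per group with limma 3.58.1 in R 4.3.3 (20 libraries, 10 residual degrees of freedom, variance trend). P-values were adjusted by Benjamini-Hochberg over all 13089 genes, and a call required an adjusted p under 0.05 and 1 log2 unit. An exact permutation test of 2 against 2 libraries cannot go below p = 0.33 and was not used. The fit recovered 200 of 200 genes changed by 2 log2 units in data simulated for AMO1 BtzR against AMO1 WT (13009 genes), with 1 false call. The changed genes were drawn from those well above the filter in AMO1 WT, with normally distributed noise. Recovery of genes near 0 FPKM was therefore not examined.

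The 9 genes, the gene lists and the tests were chosen with earlier results of these data known. Other genes were named by rule. From each list and comparison with WT, up to 2 called genes with the largest difference and no overlap between the groups were eligible. For each tested gene, CD4 and CD28 the 3 genes with the nearest pattern were eligible, with 5 listed neighbours of CD4 and CD28 on each side and the first 3 plasma cell and B-cell markers. Some eligible genes are not reported here. LCK, LYZ, MITF, CD34, PTPN11, INPPL1 and ZBTB7B, and INPP5D in AMO1 BtzR, were named after their values were seen. So were CD79B in AMO1 BtzR, TRAT1 in RPMI BtzR and the directions of plasma cell markers that were not called. Alternatives were added constants of 0.1 and 0.01, other filters, other scalings, no variance trend, a replicate block, each pair of groups fitted alone and leaving out each library. Leaving out each library for the other named genes, and the T-cell markers without ZBTB7B, were added after seeing the data. Promoters were from RefSeq, GRCh38.p14.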

Additional observations from a re-analysis of the deposited data

Results flagged for a closer look

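The difference between bortezomib-resistant and parental cells varied between the 4 lines for 5 genes, by the moderated F test of limma over the line-by-resistance terms. The adjusted p was 2.36e-11 for CD33 and 4.99e-07 for CD86, which were both near 0 in RPMI BtzR after 9.47 to 12.56 FPKM in RPMI WT, while CD33 was higher in ARH77 BtzR than in ARH77 WT. It was 4.93e-06 for LILRB1, called lower in AMO1 BtzR and in no other of these 4 comparisons. It was 1.12e-05 for LILRB4, called lower in the 3 myeloma lines and not in ARH77. It was 0.000831 for LAIR1, whose difference was 0.89 in ARH77 and between -0.24 and 0.13 in the myeloma lines. The same test passed for 71.1% of all genes, so a pass is common in these lines. Some parents were already near 0, where a fall could not show. LILRB1 was at 0.19 and 0.38 FPKM in L363 WT and 0.51 and 0.56 in RPMI WT. CD33 was at 0.26 FPKM or below in AMO1 WT and L363 WT, and CD86 at 0 and 0.02 in AMO1 WT. For these genes the test therefore cannot separate a different effect of resistance from a different level in the parents.

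CD4 was flagged because all libraries moved in opposite directions in AMO1 and L363, with a difference of -6.48 for AMO1 BtzR and 2.73 for L363 BtzR. The difference between these was not tested, as CD4 was chosen on its values.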

How the results depend on the processing

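No called difference involving a resistant group reversed, and no count of genes called between a resistant group and its parent fell under the alternatives run. Differences that were not called could change sign. LAIR1 in AMO1 BtzR, for example, ranged from -0.35 to 0.13 when single libraries were left out. Between parental lines, ARH77 WT against L363 WT fell from 6 to 5 genes under quantile normalization, without L363 WT replicate 2 and without ARH77 WT replicate 2. ARH77 WT against RPMI WT fell from 6 to 5 with 0.01 added, under quantile normalization, without RPMI WT replicate 2 and without ARH77 WT replicate 1. With 0.1 or 0.01 added in place of 1, 2 genes were called in L363 BtzR (1 with 1 added, CD86 being gained), 1 in ARH77 BtzR (none with 1 added, LAIR1 being gained), 1 in L363 CfzR against L363 BtzR (CD86) and 4 between AMO1 WT and L363 WT (2 with 1 added). With 0.1 added, 1 was called between the libraries labelled AMO1 CfzR and L363 WT, and with either constant CD86 was gained in AMO1 BtzR. Under quantile normalization 1, CD86, was called between L363 CfzR and L363 BtzR. Leaving out each library gave 0 to 1 calls in ARH77 BtzR (CD86) and 0 to 2 in L363 CfzR against L363 BtzR, where CD86 (1.04) and LILRB4 (1.12) were called without L363 CfzR replicate 1. A group left with 1 library was assumed to vary like the others. Of the other member counts, 194 were unchanged within 1.5 times. Over all genes, calls in AMO1 BtzR rose from 603 higher and 598 lower to 1032 and 992 with 0.01 added, in RPMI BtzR from 773 and 1036 to 1279 and 1566, in L363 BtzR from 133 and 137 to 263 and 319, and in ARH77 BtzR from 125 and 85 to 263 and 202.

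Replicate numbers are shared between groups, but no source pairs them. Deviations of same-numbered libraries correlated at -0.01 in AMO1 BtzR and at 0.12 to 0.24 in the other 5 comparisons. With the replicate block the number of genes called was 2 for AMO1 BtzR, 1 for L363 BtzR and 3 for RPMI BtzR, as without it.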

Other observations

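Antigens of the plasma cell and B-cell lists differed beside the genes above. In RPMI BtzR 3 of 9 plasma cell markers were called lower and none higher, against 7.92% and 5.91% of all genes. IRF4, XBP1 and PRDM1 lay above both RPMI WT libraries without a call, and MZB1 and SLAMF7 lay below them without one. CD38, an ectoenzyme and antibody target in myeloma, was at 45.60 and 56.71 FPKM in RPMI WT and 2.43 and 3.02 in RPMI BtzR (-3.80, adjusted p = 9.54e-09). TNFRSF17 (BCMA) was at 94.00 and 98.13 FPKM in RPMI WT and 7.86 and 4.93 in RPMI BtzR (-3.74, adjusted p = 1.39e-11). In AMO1 BtzR 2 were called lower and none higher, against 4.57% and 4.61% of all genes. SDC1 (CD138) was at 3265.90 and 2883.13 FPKM in WT and 1276.12 and 1355.96 in BtzR (-1.22, adjusted p = 3.63e-05). CD38 was also lower (-1.04, adjusted p = 0.00367), but was not called without AMO1 WT replicate 2 (-0.88) or AMO1 BtzR replicate 2 (-0.99). SLAMF7, MZB1 and PRDM1 lay above both AMO1 WT libraries without a call, and IRF4 and JCHAIN lay below them without one.

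Of the 9 B-cell markers, 4 were called lower and none higher in RPMI BtzR, against 7.92% and 5.91% of all genes. The 4 included BLK, a B-cell kinase, at 17.22 and 18.50 FPKM in WT and 0.25 and 0.40 in BtzR (-3.83, adjusted p = 6.36e-14). In AMO1 BtzR 1 was called higher and 2 lower, against 4.61% and 4.57% of all genes. The higher gene was CIITA, the activator of HLA class II genes, at 98.62 and 96.06 FPKM against 9.17 and 6.48 in AMO1 WT (3.50, adjusted p = 1.2e-09). FCER2 was lower, at 0.58 and 0.73 FPKM against 5.55 and 3.78 (-1.76, adjusted p = 3.53e-07). CD79B was lower too, at 24.34 and 24.52 FPKM against 51.30 and 52.48 (-1.06, adjusted p = 2.59e-06). CD8B, a chain of the coreceptor of cytotoxic T cells, was at 289.83 and 263.24 FPKM in RPMI WT and 126.59 and 82.00 in RPMI BtzR (-1.43, adjusted p = 1.49e-06). TRAT1 was also lower in ARH77 BtzR, at 0 and 0.03 FPKM against 3.66 and 4.31 in ARH77 WT (-2.29, adjusted p = 5.6e-10). L363 CfzR had less TRAT1 as well, at 0.32 and 0.36 FPKM against 8.02 and 8.08 in L363 WT (-2.76, adjusted p = 1.97e-11). So did RPMI BtzR, at 0.03 and 0 FPKM against 1.15 and 1.13 in RPMI WT (-1.08, adjusted p = 5.76e-08).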
